A study of Mus musculus with 16 samples.

Results

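The genes of ketone and branched-chain amino acid use were followed in left ventricles of mice with and without the M2 isoform of pyruvate kinase, before surgery and 3 days after sham surgery or myocardial infarction. The group was chosen by name and function and not by a cut on measured values, but with earlier results of these data known. It holds Bdh1, Oxct1 and Acat1 of ketone oxidation, Bcat2, Bckdha, Bckdhb, Bckdk and Ppm1k of branched-chain amino acid (BCAA) oxidation, and the transcription factor gene Klf15. These are 9 of the 55492 genes in the deposited table, and 9 of 9 had a mean of at least 10 normalized counts over the 16 libraries, as did 20576 genes in all. PKM2fl/fl mice carried floxed Pkm alleles (exon 10) without a Cre and served as controls, and PKM2-/- mice carried the deleted allele in the germline, made by crossing to a CMV-Cre line that was then bred out. The deletion was therefore present in every tissue and throughout development. All mice were C57BL/6 males aged 8 to 12 weeks. Each genotype had 2 baseline hearts without surgery, 3 sham hearts in which the left anterior descending artery was not tied, and 3 hearts with permanent ligation of that artery (MI). Whole left ventricle was pulverized, so that muscle, scar-forming and immune cells were sequenced together as ribosomal RNA-depleted total RNA, 1 library per mouse.

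Ketone bodies made by the liver are burned in heart mitochondria. Bdh1 encodes the dehydrogenase that turns 3-hydroxybutyrate into acetoacetate, Oxct1 the transferase (SCOT) that activates acetoacetate with coenzyme A, and Acat1 the mitochondrial thiolase that splits the product into acetyl-CoA. Leucine, isoleucine and valine lose their amino group to the transaminase encoded by Bcat2, and the resulting keto acids are decarboxylated by the branched-chain keto acid dehydrogenase (BCKDH), whose E1 component is made of the Bckdha and Bckdhb products. The kinase encoded by Bckdk phosphorylates E1 and switches the complex off, while the phosphatase encoded by Ppm1k switches it on. Klf15 encodes a Kruppel-like factor that is known to activate BCAA breakdown genes in heart and skeletal muscle and is itself a target of the glucocorticoid receptor.

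Kruppel-like factors bind GC-rich sites that often hold the letters CACCC, so the sequence upstream of the members' transcription start sites was searched for CACCC on either strand (GGGTG on the printed strand). The windows came from RefSeq on GRCm38.p6, the mm10 build that the reads were aligned to, and 8 of the 9 members matched with 11 starts. Bdh1 is shown at both of its annotated starts because it is the member whose level differed between genotypes in a test described below, Bckdha because it carries the E1 alpha subunit and holds no match, and Klf15 as the factor's own gene. Each sequence is the 250 bases before a start, 5′ to 3′ on the gene's strand, with matches in capitals.
Bdh1 first start, chr16:31422047-31422296, plus strand: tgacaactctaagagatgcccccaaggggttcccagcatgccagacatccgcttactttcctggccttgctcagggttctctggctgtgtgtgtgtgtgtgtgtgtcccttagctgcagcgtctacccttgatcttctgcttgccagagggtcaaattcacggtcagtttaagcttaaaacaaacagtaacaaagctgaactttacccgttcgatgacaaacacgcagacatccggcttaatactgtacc
Bdh1 second start, chr16:31428503-31428752, plus strand: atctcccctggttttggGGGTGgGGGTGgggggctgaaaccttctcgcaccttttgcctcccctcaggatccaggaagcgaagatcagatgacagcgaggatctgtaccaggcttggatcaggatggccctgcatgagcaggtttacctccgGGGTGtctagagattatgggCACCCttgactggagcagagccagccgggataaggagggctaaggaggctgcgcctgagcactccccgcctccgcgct
Bckdha, chr7:25658762-25659011, minus strand: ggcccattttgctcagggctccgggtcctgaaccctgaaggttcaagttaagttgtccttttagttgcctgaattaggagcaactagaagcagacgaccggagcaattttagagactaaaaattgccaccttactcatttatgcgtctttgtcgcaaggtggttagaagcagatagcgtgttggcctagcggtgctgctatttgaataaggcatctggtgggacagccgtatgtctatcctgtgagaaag
Klf15, chr6:90462326-90462575, plus strand: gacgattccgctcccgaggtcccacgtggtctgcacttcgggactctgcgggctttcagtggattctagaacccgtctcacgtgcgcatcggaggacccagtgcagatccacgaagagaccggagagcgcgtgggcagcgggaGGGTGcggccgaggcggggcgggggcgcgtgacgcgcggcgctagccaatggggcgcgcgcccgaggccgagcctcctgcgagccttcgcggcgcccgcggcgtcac
The upstream window of the first Bdh1 start held 0 matches, that of the second start 4, that of Bckdha 0 and that of Klf15 1. Over windows of 300 bases, which add 50 bases after the start, 6 of the 11 member windows held the letters on either strand, against 57.5% of all 32851 promoter windows of the same length. A match is a description of letters and not a bound site, and the counts cannot say which Bdh1 start was used.

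The members lie on 5 chromosomes (GRCm38.p6): Bdh1 at chr16:31422297-31458901, Oxct1 at chr15:4026428-4155344, Ppm1k at chr6:57506502-57535552, Klf15 at chr6:90461043-90491803, Bckdha at chr7:25629852-25658782, Bcat2 at chr7:45568967-45589710 and Bckdk at chr7:127904073-127909664. Acat1 at chr9:53580522-53610350 and Bckdhb at chr9:83925111-84124240 share chromosome 9 with the targeted gene, Pkm (chr9:59656576-59679372), at distances of 6.05 and 24.2 Mb. The normalized count is the number of reads on a gene divided by the library's size factor, a correction for depth made by the authors. Whole reads could be recovered from these values, and libraries held 20623769 to 71855101 reads on genes. The member with the fewest reads in any library was Klf15, with 240.

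Values of the targeted gene do not check the genotype here, since the table sums both pyruvate kinase isoforms and exon 10 is not separated. Pkm had 9602 and 9108 normalized counts in PKM2fl/fl baseline hearts and 11981 and 12984 in PKM2-/- baseline hearts. Over baseline and sham hearts Pkm was higher in PKM2-/- (log2 difference 0.52, limma adjusted p = 0.0180). The library PKM2fl/fl MI 3 stood apart within its group: it was the lowest of the 3 for 9 of 9 members, and its mean log2 level over 10 cardiomyocyte markers was 13.95, against 15.19 and 15.20 in the other MI hearts of that genotype. No marker in that list was at 0 in any library. The share of reads on ribosomal RNA loci also varied, from 17.2 to 22.1% in PKM2fl/fl baseline and 38.6 to 43.0% in PKM2-/- baseline hearts, which matters for scaling by total count.

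Before surgery Oxct1, Acat1 and Bckdha had the highest levels of the 9 genes when levels were divided by transcript length. In PKM2fl/fl baseline hearts (mean ± SD, n = 2, normalized counts per kb of canonical transcript) Oxct1 stood at 5976 ± 40.3, Acat1 at 2075 ± 171 and Bckdha at 1623 ± 88.4. Bcat2 followed at 692 ± 5.04, Ppm1k at 611 ± 1.61, Bdh1 at 546 ± 124 and Klf15 at 542 ± 73.9. Bckdk at 334 ± 2.48 and Bckdhb at 257 ± 9.89 were lowest. Ppm1k, Bdh1 and Klf15 did not differ beyond their spread, whereas each of the steps from Oxct1 to Bcat2 was larger than the SD of either neighbour. In PKM2-/- baseline hearts Oxct1 (6632 ± 162), Acat1 (1869 ± 144) and Bckdha (1521 ± 13.2) again led, and Bdh1 (919 ± 266) followed Bckdha, with a spread that reached Bcat2 (701 ± 35.6) and Ppm1k (677 ± 61.7).

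**Figure D1:**
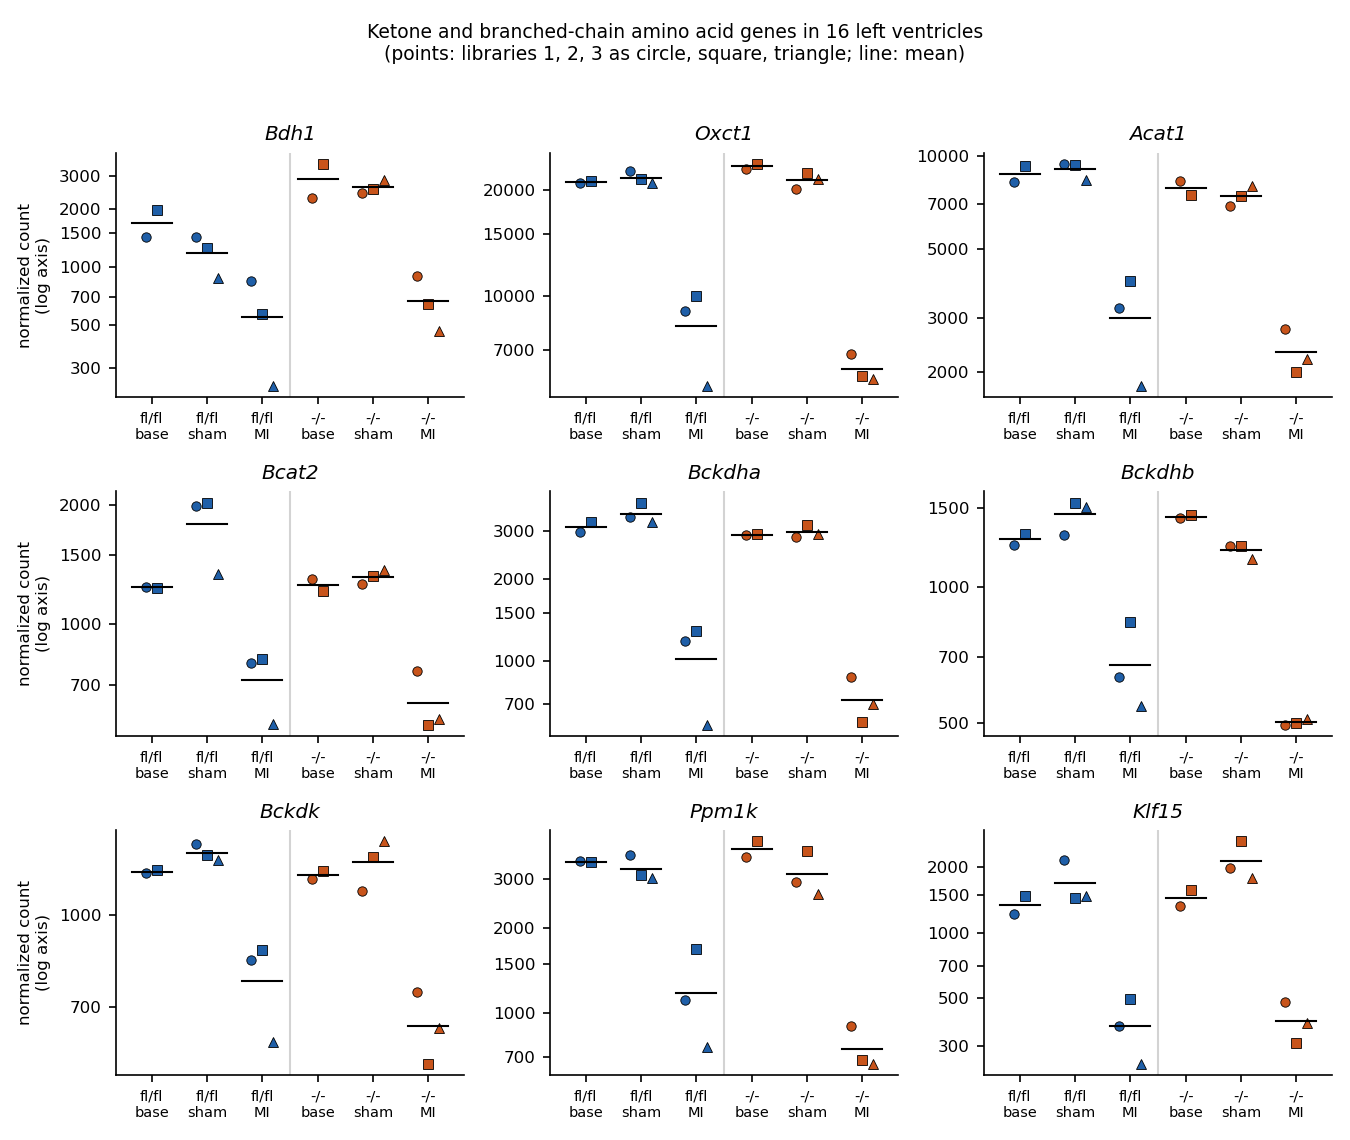
Normalized counts (log axis) of the 9 genes in the 16 libraries, by genotype (blue PKM2fl/fl, orange PKM2-/-) and treatment (base: no surgery). Points are single hearts, with marker shape giving the library number, and lines are group means. In every panel the 3 MI hearts of each genotype lie below that genotype's 3 sham hearts, and the triangle of PKM2fl/fl MI 3 is the lowest of its group.

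Which members changed in the infarcted ventricle was asked first, by comparing MI with sham hearts within each genotype. The 3 ketone oxidation genes were lower in both genotypes, by 2.39- to 4.05-fold. Oxct1 had 22638, 21514 and 20919 normalized counts in PKM2fl/fl sham hearts and 9052, 9975 and 5530 after MI. In PKM2-/- hearts Oxct1 had 20145, 22461 and 21473 counts after sham surgery and 6826, 5929 and 5820 after MI. The groups did not overlap in either genotype, and Oxct1 was 2.73-fold lower in PKM2fl/fl (log2 change -1.45, SE 0.23, limma adjusted p = 0.00184) and 3.46-fold lower in PKM2-/- (-1.79, SE 0.12). In whole tissue, fewer cells of a type and less RNA per cell cannot be told apart.

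Bdh1 was the most variable of the 3. It had 1441, 1254 and 883 counts in PKM2fl/fl sham hearts and 846, 573 and 240 after MI. In PKM2-/- hearts it had 2452, 2553 and 2851 counts after sham surgery and 896, 642 and 466 after MI. The PKM2fl/fl groups nearly met, at 883 and 846 counts, without overlapping, while the PKM2-/- groups were far apart. Bdh1 was 2.39-fold lower in PKM2fl/fl (-1.26, SE 0.42, limma adjusted p = 0.0386) and 4.05-fold lower in PKM2-/- (-2.02, SE 0.20). The PKM2fl/fl call depended on single libraries: the limma adjusted p was 0.119 without sham 1, 0.0968 without sham 2 and 0.0567 without MI 2, and without MI 3 the change was -0.75 (adjusted p = 0.0320). Acat1 ranged from 8365 to 9422 counts in PKM2fl/fl sham and 1804 to 3957 in PKM2fl/fl MI hearts, and from 6877 to 7982 and 2001 to 2759 in PKM2-/- hearts. It was 3.17-fold lower in PKM2fl/fl and 3.22-fold lower in PKM2-/-, and its groups did not overlap.

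The BCAA genes were lower too, the catalytic subunits and the activating phosphatase more so than the kinase. Bckdha, the E1 alpha subunit, had 3372, 3814 and 3239 counts in PKM2fl/fl sham hearts and 1186, 1296 and 584 after MI. PKM2-/- hearts had 2850, 3163 and 2918 counts of Bckdha after sham surgery and 874, 601 and 697 after MI. It was 3.59-fold lower in PKM2fl/fl (-1.84, SE 0.28, limma adjusted p = 0.00152) and 4.15-fold lower in PKM2-/- (-2.05, SE 0.13), with no overlap. Its partner Bckdhb, the E1 beta subunit, was lower by 2.18- and 2.40-fold, from 1153 to 1541 counts over the 6 sham hearts to 495 to 839 over the 6 MI hearts. Bcat2, the transaminase, was lower by 2.47- and 2.12-fold, from 1260 to 2034 counts after sham surgery to 553 to 812 after MI.

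The regulatory pair of the complex moved unequally. Ppm1k, the phosphatase, had 3627, 3099 and 3008 counts in PKM2fl/fl sham and 1111, 1685 and 758 in PKM2fl/fl MI hearts. In PKM2-/- hearts Ppm1k had 2915, 3759 and 2652 counts after sham surgery and 899, 682 and 662 after MI. Its fall was 2.88-fold in PKM2fl/fl (-1.52, SE 0.26, limma adjusted p = 0.00254) and 4.15-fold in PKM2-/- (-2.05, SE 0.16). Bckdk, the kinase, had 1320, 1265 and 1240 counts in PKM2fl/fl sham and 841, 872 and 611 in PKM2fl/fl MI hearts. Among PKM2-/- hearts Bckdk had 1098, 1256 and 1334 counts after sham surgery and 741, 560 and 645 after MI. It fell least of the 9 genes in both genotypes, 1.66-fold (-0.73, SE 0.15, limma adjusted p = 0.00522) and 1.90-fold (-0.93, SE 0.13), again without overlap.

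Klf15 fell most of the 9 genes in both genotypes. It had 2157, 1440 and 1485 counts in PKM2fl/fl sham hearts and 371, 497 and 249 after MI. The PKM2-/- hearts had 1998, 2639 and 1791 counts after sham surgery and 479, 310 and 382 after MI. The highest MI heart of either genotype, at 497 counts, was far below the lowest sham heart, at 1440. Klf15 was 4.64-fold lower in PKM2fl/fl (-2.21, SE 0.26, limma adjusted p = 0.000553) and 5.49-fold lower in PKM2-/- (-2.46, SE 0.18).

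In all, 9 of 9 members were called lower in PKM2fl/fl at a limma adjusted p under 0.05, where 22.0% of the 20568 genes tested were, and 9 of 9 in PKM2-/-, where 26.4% of 20572 were. A fall of at least 2-fold was called for 8 of 9 in each genotype, against 10.6% of genes in PKM2fl/fl and 13.8% in PKM2-/-. MI and sham hearts did not overlap, with MI lower, for 9 of 9 in each, against 28.8 and 30.3% of genes. The median log2 change of the members was -1.45 in PKM2fl/fl and -1.79 in PKM2-/-, and that of all genes tested 0.01 and 0.03. The adjusted p-values of the members in PKM2-/- ran from 1.73e-06 to 1.81e-04.

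Markers of the cell types moved in the same hearts. The summed level of the 10 cardiomyocyte markers was 1046200 to 1315900 normalized counts in the 10 uninjured hearts, 215060 to 499540 in PKM2fl/fl MI and 227190 to 310390 in PKM2-/- MI hearts. Of these markers 9 of 10 were called lower in PKM2fl/fl (median log2 change -1.87) and 10 of 10 in PKM2-/- (-2.20). Fibroblast markers rose for 5 of 6 and fell for 1 in both genotypes, with sums of 24171 to 45424 in sham and 141810 to 196250 in MI hearts. Leukocyte markers rose for 6 of 8 in PKM2fl/fl and 8 of 8 in PKM2-/-, with sums of 5196 to 10635 in sham and 20805 to 36690 in MI hearts. Endothelial markers rose for 1 of 5 in each genotype and fell for 1 of 5 in PKM2-/- (Kdr, -0.57). Of 3 mural cell markers Tagln rose (1.81 and 1.26) and Rgs5 fell in both genotypes (-1.41 in PKM2-/-), and Myh11 fell in PKM2-/- (-1.34). Values were therefore also scaled to the mean log2 level of the cardiomyocyte markers, an alternative chosen after seeing the data, which moved the median log2 change of all genes to 1.76 in PKM2fl/fl and 2.16 in PKM2-/-. On that scale 0 members were called lower in either genotype, where only 32 of 21814 genes in PKM2fl/fl and 136 of 22451 in PKM2-/- were. Called higher were 17436 of these genes in PKM2fl/fl and 20217 in PKM2-/-. Bckdk was higher by 1.01 (limma adjusted p = 0.0284) in PKM2fl/fl and by 1.20 in PKM2-/-, where Bckdhb (0.86), Bcat2 (1.04) and Acat1 (0.44) were also called higher. Klf15 was the lowest member on that scale, at -0.47 and -0.33 without a call, and each of these values lay below the shifted median of all genes. How much of the fall came from fewer cardiomyocytes was not tested.

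**Figure D2:**
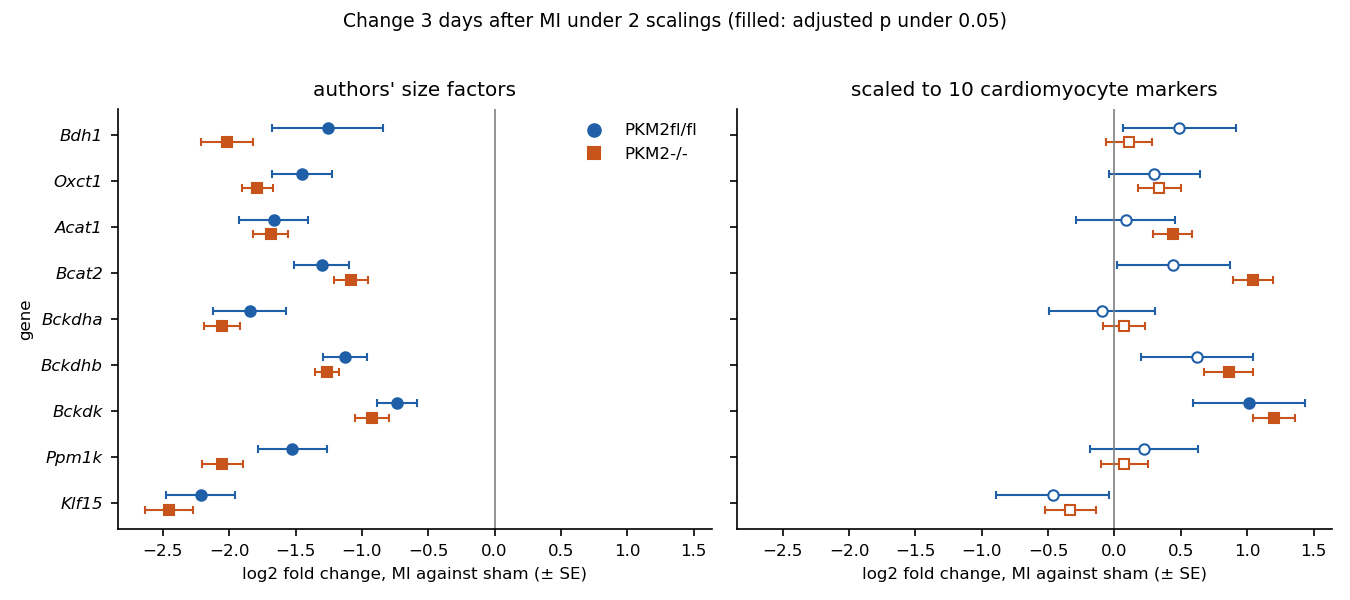
Log2 change from sham to MI of the 9 genes in PKM2fl/fl (blue circles) and PKM2-/- (orange squares), with the authors' size factors (left) and scaled to 10 cardiomyocyte markers (right). Bars are ± 1 standard error of the limma fit and filled symbols have an adjusted p under 0.05. With size factors the genes lie between -2.21 and -0.73 in PKM2fl/fl and between -2.46 and -0.93 in PKM2-/-, and on the marker scale Klf15 is lowest, at -0.47 and -0.33, and Bckdk highest, at 1.01 and 1.20.

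Ratios within a library do not depend on scaling, but in whole tissue they can depend on the cell mix. Per length, Bckdk stood to Ppm1k as 0.627 ± 0.0426 (SD, n = 3) in PKM2fl/fl sham and 1.10 ± 0.245 in PKM2fl/fl MI hearts. In PKM2-/- hearts the ratio was 0.643 ± 0.140 after sham surgery and 1.39 ± 0.139 after MI. The 6 MI hearts (0.823 to 1.55) all lay above the 6 sham hearts (0.531 to 0.800), so kinase RNA gained on phosphatase RNA in both genotypes. Baseline hearts had ratios of 0.542 to 0.550 in PKM2fl/fl and 0.464 to 0.512 in PKM2-/-. The part of the changed cell mix in these ratios was not tested. The E1 subunits came closer in level: Bckdha to Bckdhb went from 6.25 ± 0.579 to 3.89 ± 1.05 in PKM2fl/fl and from 6.41 ± 0.362 to 3.75 ± 0.756 in PKM2-/-. Oxct1 to Acat1, enzymes of successive steps, lay between 2.73 and 3.82 in the 16 libraries. At baseline it was 2.73 to 3.04 in PKM2fl/fl and 3.31 to 3.82 in PKM2-/- hearts. After sham surgery it was 2.75 to 2.99 and 3.22 to 3.61, so PKM2-/- hearts lay above in both treatments. The genotypes overlapped after MI (3.015 to 3.666 and 2.959 to 3.545). How often other gene ratios separate in this way was not examined. No test was made on the ratios, and an exact permutation test of 3 hearts against 3 cannot go below p = 0.1.

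Other genes of both pathways were then examined, from lists by function. Of the 21 measured genes of BCAA breakdown beyond the members, 20 were called lower and 1 higher in PKM2fl/fl (median log2 change -1.35), and 19 lower and 1 higher in PKM2-/- (-1.39). Among all genes tested 22.0 and 26.4% were called lower, and 23.2 and 27.9% higher. Dbt (E2) and Dld (E3), the remaining BCKDH components, fell by 1.18 and 1.36 on the log2 scale in PKM2fl/fl and by 1.42 and 1.39 in PKM2-/-. Ivd, the isovaleryl-CoA dehydrogenase of leucine breakdown, fell by 1.70 in PKM2fl/fl and by 2.34 in PKM2-/-. Mccc1, a subunit of methylcrotonyl-CoA carboxylase in the same route, fell by 1.35 and 1.72. Hibch, of valine breakdown, fell by 1.16 and 1.19, and Mcee, a racemase on the way to succinyl-CoA, by 1.43 and 1.51. The gene that rose was Bcat1, the cytosolic transaminase. Its mean went from 86.9 to 715 counts in PKM2fl/fl (log2 change 3.07, SE 0.22, limma adjusted p = 1.25e-04) and from 114 to 811 in PKM2-/- (2.82, SE 0.13, adjusted p = 5.54e-07). Per length, Bcat2 exceeded Bcat1 by 98.6 ± 28.6 (SD, n = 3) times in PKM2fl/fl sham and 4.73 ± 1.35 times in PKM2fl/fl MI hearts, and by 53.3 ± 4.05 and 3.63 ± 1.08 times in PKM2-/-. The leukocyte and fibroblast markers given above rose in the same hearts, and their part in the Bcat1 rise was not tested.

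Transport moved the other way. Of 6 BCAA transporter genes, 5 were called higher in PKM2fl/fl and 4 in PKM2-/-, with median log2 changes of 1.14 and 1.11, where 23.2 and 27.9% of genes were called higher. The plasma membrane carriers Slc7a5 (2.01 and 2.00), Slc7a8 (2.24 and 1.82) and Slc43a2 (1.23 and 1.55) led. Slc25a44, the mitochondrial BCAA carrier, changed by 0.08 in PKM2fl/fl and -0.03 in PKM2-/- and did not pass (limma adjusted p = 0.672 and 0.864). Scaled to cardiomyocyte markers Slc25a44, like the other 5, was called higher, on a scale where the median of all genes was 1.76 in PKM2fl/fl and 2.16 in PKM2-/-. Most genes were called higher on that scale, 17436 of 21814 in PKM2fl/fl and 20217 of 22451 in PKM2-/-.

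Genes of ketone making, transport and sensing were mixed. Of the 10 listed, 8 were tested, and 3 were called higher and 3 lower in PKM2fl/fl, and 3 higher and 2 lower in PKM2-/-, while 23.2 and 27.9% of all genes were called higher and 22.0 and 26.4% lower. Slc16a1, the carrier MCT1 that brings ketones and lactate into cells, fell by 1.03 and 1.18 on the log2 scale. Aacs, the cytosolic enzyme that activates acetoacetate for lipid synthesis, rose by 1.37 and 1.27. Hcar2, a receptor for 3-hydroxybutyrate found on myeloid cells, rose by 3.27 (limma adjusted p = 0.0211) and 2.64 (0.0166), from very low levels.

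Genes of the TCA cycle and fatty acid oxidation gave a reference for mitochondrial fuel use. In both genotypes 20 of 20 were called lower, where 22.0 and 26.4% of all genes were. Their medians were -1.49 and -1.77, close to the members' -1.45 and -1.79. Cpt1b, the mitochondrial carnitine palmitoyltransferase of muscle, fell by 2.12 and Acadm, the medium-chain acyl-CoA dehydrogenase, by 2.17 in PKM2-/-. Of 18 regulators of fuel genes 11 were called lower and 4 higher in each genotype, beside the same shares of all genes called lower, and 23.2 and 27.9% called higher. Ppargc1a, a coactivator of mitochondrial genes, fell by 1.92 in PKM2fl/fl and by 2.72 in PKM2-/-, and the nuclear receptor genes Ppara (1.95 and 2.57) and Esrrg (1.53 and 2.35) fell beside it. Of 7 glucocorticoid-responsive genes 5 fell in PKM2fl/fl (median -0.86), where 22.0% of genes did, and 3 in PKM2-/- (median -0.13), where 26.4% did. Zbtb16 fell by 1.88 and 1.38, Klf9 by 1.21 and 0.98, and Tsc22d3 by 1.01 and 0.62.

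**Figure D3:**
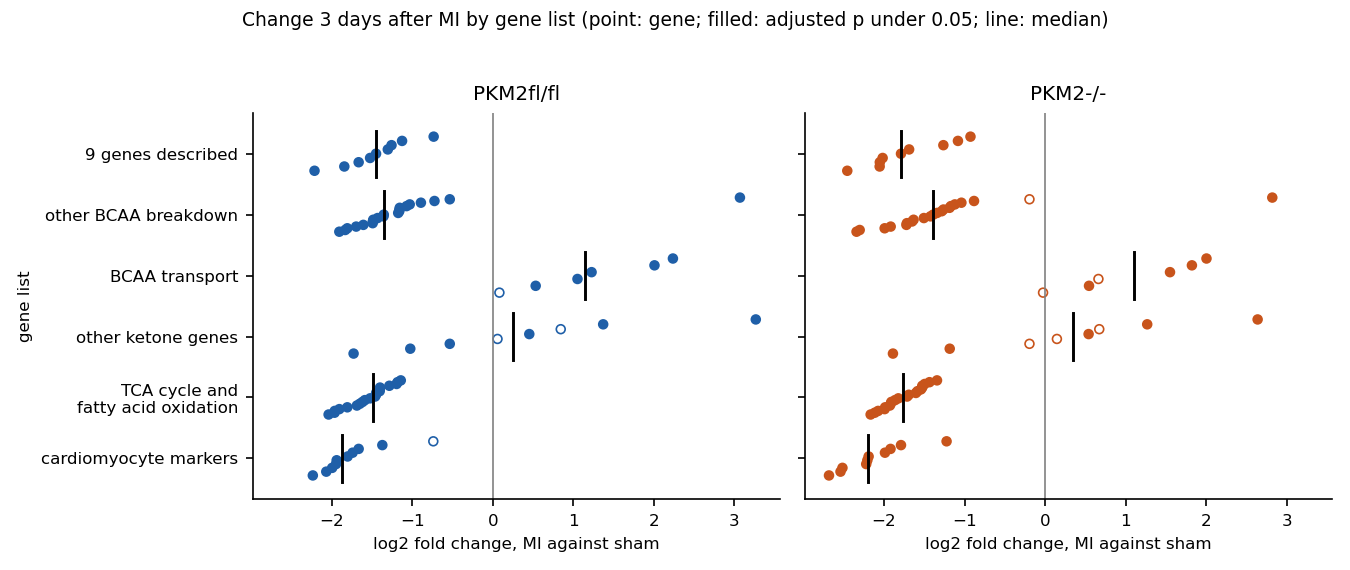
Log2 change from sham to MI of single genes (filled: limma adjusted p under 0.05) in the 9 members, 4 gene lists and the cardiomyocyte markers, by genotype, with the median of each as a line. BCAA breakdown genes lie below 0 apart from Bcat1 at 3.07 and 2.82, BCAA transport genes lie between -0.03 and 2.24, and the members' medians of -1.45 and -1.79 are close to those of the TCA cycle and fatty acid oxidation genes, -1.49 and -1.77.

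Whether the response to MI differed between genotypes was tested with an interaction term over sham and MI hearts. None of the 9 members passed (limma, adjusted p 0.767 to 0.989), 0 of them had an unadjusted p under 0.05, and 0 of the 20604 genes tested were called, with 1468 (7.12%) at an unadjusted p under 0.05. Without PKM2fl/fl MI 3 the limma adjusted p of the members ran from 0.0811 to 0.951, so none passed, and the estimate for Bdh1 was -1.27 in place of -0.76. In that fit 4 of 9 members had an unadjusted p under 0.05. The share of all genes under 0.05 without this library was not counted, so the 4 of 9 has no background. With all libraries the largest member estimates were those of Bdh1 (-0.76, SE 0.52, 95% interval -1.88 to 0.36) and Ppm1k (-0.53), both a larger fall in PKM2-/-. Bcat2 had the opposite sign, at 0.22. The sham hearts enter both the MI and the baseline comparisons of a genotype, so these are not independent.

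Genotypes were compared within each treatment. Bdh1 was the member with the largest differences at baseline and after sham surgery. In baseline hearts it had 1433 and 1980 counts in PKM2fl/fl and 2287 and 3464 in PKM2-/-, and the sham and MI values are given above. The genotypes did not overlap at baseline or after sham surgery and overlapped after MI. Values in PKM2-/- lay wholly above those in PKM2fl/fl for 17.9% of genes at baseline and 8.34% after sham surgery. The log2 difference, PKM2-/- minus PKM2fl/fl, was 0.74 (SE 0.21, limma adjusted p = 0.856) at baseline, 1.16 (SE 0.16, adjusted p = 0.0802) after sham surgery and 0.40 (SE 0.42, adjusted p = 0.724) after MI. With 1 library left out the baseline difference ranged from 0.44 (without PKM2-/- baseline 2) to 1.04 (without PKM2-/- baseline 1). The difference after MI ranged from -0.11 (without PKM2fl/fl MI 3) to 0.80 (without PKM2fl/fl MI 1), and it was 0.16 without PKM2-/- MI 1 and 0.63 without PKM2-/- MI 3. With all libraries none of these passed in the limma fit, although after sham surgery Bdh1 passed with no filter on low counts (adjusted p = 0.0476) and in DESeq2 on the recovered reads (1.14, adjusted p = 1.75e-08). The share of genes called was 0.238% at baseline, 0.0447% after sham surgery and 0.0291% after MI.

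Baseline and sham hearts were then put in a single fit with treatment as a term, a test chosen after seeing the data. PKM2fl/fl hearts ranged from 883 to 1980 counts of Bdh1 (median 1433, n = 5) and PKM2-/- hearts from 2287 to 3464 (median 2553, n = 5), with no overlap. Groups without overlap and higher in PKM2-/- were found for 0.773% of the 20180 genes tested. Bdh1 was 1.99-fold higher in PKM2-/- (log2 difference 0.99, SE 0.16, 95% interval 0.65 to 1.33, limma adjusted p = 0.0226) and was 1 of 9 members called, where 0.223% of genes were. With 1 library left out at a time the difference stayed between 0.86 and 1.12, but the call held in 4 of 10 fits (adjusted p 0.0177 to 0.111) and was lost without PKM2fl/fl baseline 1, PKM2fl/fl sham 2, PKM2-/- baseline 2 or any 1 PKM2-/- sham heart. The difference was 1.08 (adjusted p = 0.00576) scaled to cardiomyocyte markers and 0.56 (adjusted p = 0.0434) scaled to total count, a scaling that the ribosomal share of reads enters.

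Reads of Bdh1 could not be fully separated from an antisense gene. Gm15743, a long noncoding RNA annotated on the opposite strand at chr16:31427876-31429776, lies wholly inside Bdh1 and covers the second Bdh1 start shown above. The strand setting of the counting is not given in the sources used here. Gm15743 had 10.3 to 19.8% of the Bdh1 level per library, with 224 and 297 counts in PKM2fl/fl baseline and 310 and 542 in PKM2-/- baseline hearts. After sham surgery it had 220, 183 and 115 counts in PKM2fl/fl and 307, 385 and 292 in PKM2-/-. At baseline and after sham surgery it too was therefore higher in PKM2-/- without overlap. After MI the genotypes overlapped, at 108, 101 and 47.6 counts in PKM2fl/fl and 127, 96.5 and 77.9 in PKM2-/-. It did not pass over baseline and sham hearts (log2 difference 0.85, limma adjusted p = 0.180), and it fell with MI in both genotypes (-1.04, adjusted p = 0.0447, and -1.72). Other members have annotated overlaps as well, with overlapping genes at 5.59% (BC037032, Oxct1), 8.11% (0610005C13Rik, Bcat2) and 12.7% (Gm46124, Bckdhb) of the member's mean.

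**Figure D4:**
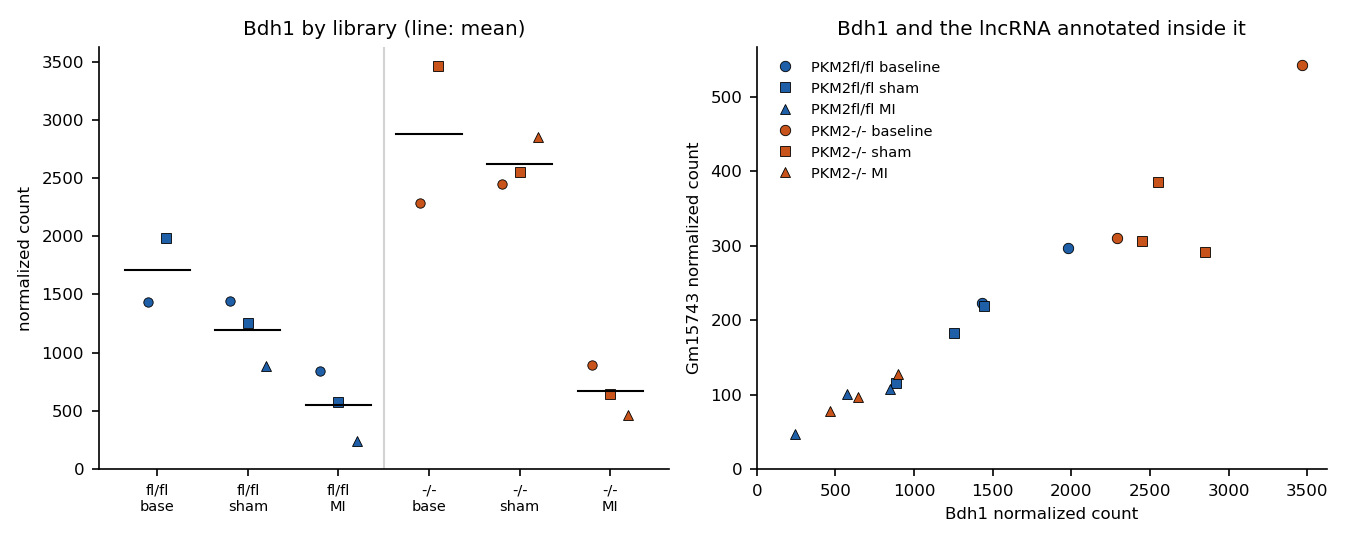
Bdh1 normalized counts by library, with lines for group means (left), and Gm15743 against Bdh1 normalized counts in the 16 libraries (right), with color for genotype and, at right, shape for treatment. The 5 uninjured PKM2-/- hearts (2287 to 3464 Bdh1 counts) lie above the 5 uninjured PKM2fl/fl hearts (883 to 1980), the MI hearts of both genotypes overlap, and Gm15743 is higher where Bdh1 is higher, at 10.3 to 19.8% of its level.

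The other 8 members showed no called difference between genotypes in any treatment or over baseline and sham hearts with the authors' size factors. In sham hearts 5 of 9 members, Bdh1 among them, had an unadjusted p under 0.05, as did 10.8% of genes. Bcat2 was -0.42 (limma adjusted p = 0.368) and Acat1 -0.28 (0.347) after sham surgery. Over baseline and sham hearts Acat1 was -0.23 (0.447), Bcat2 -0.24 (0.647) and Klf15 0.25 (0.680). After MI, Ppm1k was -0.60 (0.390) and Bckdhb -0.40 (0.361). Without PKM2fl/fl MI 3, the library with the lowest cardiomyocyte markers of its group, 4 of 9 members were called lower in PKM2-/- after MI, against 4.39% of genes: Ppm1k (-0.88, limma adjusted p = 0.0318), Bckdha (-0.79, 0.0227), Acat1 (-0.63, 0.0412) and Oxct1 (-0.62, 0.0192). Without that library the mean log2 marker level was 15.19 and 15.20 in the PKM2fl/fl and 14.17 to 14.59 in the PKM2-/- MI hearts, and the part of this gap in the 4 calls was not tested.

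Sham surgery itself was compared with baseline. No member was called in PKM2fl/fl, where 0.00496% of genes were, or in PKM2-/-, where 3.67% were. Klf15 came closest in PKM2-/-, from 1328 and 1578 counts at baseline to 1998, 2639 and 1791 after sham surgery, without overlap, as for 18.2% of genes. Its log2 change was 0.55 (SE 0.17, limma adjusted p = 0.118), passing in DESeq2 (adjusted p = 0.0356) and, at 0.67, without sham 3 (limma adjusted p = 0.0411). In PKM2fl/fl, Klf15 was 0.31 (adjusted p = 0.497), with overlapping groups, and over both genotypes, where 6.55% of genes were called, 0.43 (adjusted p = 0.0874). Of the 7 glucocorticoid-responsive genes only Fkbp5 (2.17), Tsc22d3 (0.99) and Sgk1 (0.97) were called higher after sham surgery in PKM2-/-, where 2.40% of genes were. No gene of that list was called in PKM2fl/fl, where only 1 of 20146 genes was called at all. Over both genotypes Fkbp5 (1.68), Tsc22d3 (0.76) and Sgk1 (0.65) were called higher, as were 776 of 20180 genes. Bcat2 in PKM2fl/fl had 1244 and 1231 counts at baseline and 1999, 2034 and 1339 after sham surgery, with sham 3 near the baseline hearts (0.51, SE 0.18, adjusted p = 0.292, and 0.70 with adjusted p = 0.0250 without sham 3). Bcat1 rose in PKM2-/- (1.24, limma adjusted p = 0.0358), stood at 0.80 in PKM2fl/fl (adjusted p = 0.294) and was called over both genotypes (1.02, adjusted p = 0.0114). Markers of other cells moved in the same comparison: leukocyte markers rose for 5 of 8 in PKM2-/-, among them S100a8 (3.41) and Itgam (1.44), and fibroblast markers for 3 of 6, among them Col1a1 (1.46), while 0 of either list were called in PKM2fl/fl (medians 0.96 and 0.84). Of 3 atrial markers Myl7 (2.52) and Myl4 (1.75) were called higher over both genotypes, with sums of 120 to 411 in baseline and 313 to 1487 in sham hearts, and 0 of the 10 cardiomyocyte markers were called. The part of these markers in the Klf15, Bcat1 and glucocorticoid-responsive changes was not tested.

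The members varied together mainly through the infarct. Over the 16 libraries, pairs of members correlated with Pearson's r from 0.721 to 0.995 (median 0.949), while over the 10 uninjured hearts r ran from -0.631 to 0.805 (median 0.146). These are descriptions, and the libraries share treatment, depth and cell mix. Among the closest 2 genes to Oxct1 was Ivd (r = 0.996), and those most like Acat1 were Acadm (0.997) and Dld (0.996). Bckdha was closest to B3gnt8 (0.999), its neighbour on chromosome 7, and then to Acadm (0.998). Bdh1 was closest to Gm15743 (0.983), the antisense gene within it. For the others the closest were Asnsd1 for Bcat2 (0.982), Ift81 for Bckdhb (0.991), Ddo for Bckdk (0.991), Tmem117 for Ppm1k (0.992) and Cdc37l1 for Klf15 (0.992), and Cdc37l1 was also among the closest 2 for Klf15 over the 10 uninjured hearts (0.964).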

How the data were processed

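RNA-seq of whole left ventricle from 16 mice was used, 1 library per mouse, with p-values measuring the spread between mice. Reads were trimmed (PRINSEQ), mapped to mm10 (HISAT2) and assigned to genes (featureCounts) by the authors, who deposited normalized counts, the signal used here, as reads divided by DESeq2 size factors. Strand and multi-mapping settings are not given in the sources used here. Whole reads were recovered for 100% of values within 0.02 read. The authors also deposited their own log2 fold changes, Wald score and p-values for the baseline comparison, which were not used. The table had 0 columns without a sample.

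Since the values were normalized, log2(value + 1) was tested with limma 3.58.1 (R 4.3.3, intensity trend) in 2-group fits of genes with a mean of at least 10, adjusted by Benjamini-Hochberg over all genes tested. Fold changes are on the log2(value + 1) scale. Alternatives were a pseudocount of 0.1, no filter, total count, TMM (edgeR 4.0.16) and cardiomyocyte marker scaling, edgeR and DESeq2 1.42.0 on recovered reads, a replicate block, all 16 libraries in a single fit and each library left out. The marker scaling and the fits over baseline and sham hearts or over both genotypes were added after seeing the data. Named genes were the 9 members, Pkm, Bcat1, Dbt, Dld, Slc25a44, Ivd, Hcar2, Slc16a1 and Ppargc1a, the 3 genes of each list with the smallest p in MI against sham of each genotype, and the 2 genes most correlated with each member. Genes of the sham comparison that this rule does not name, such as Fkbp5 and Sgk1, were picked after their values were seen. The members and lists were chosen with earlier results of these data known. Lists share Hadha, Hadhb and Klf9, among others. Some genes that the rule names are not reported here. Transcript lengths came from GENCODE, positions and promoters from RefSeq. The fits were tested on simulated data with known changes.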

Additional observations from a re-analysis of the deposited data

How the results depend on the processing

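Over all single genes and alternatives, 1174 values kept their side of the threshold and, where not called, moved by less than 1 standard error, 93 uncalled values moved by more, 20 changed sign where either fit made a call, 20 newly passed and 16 no longer passed. Of the uncalled values that moved by less, 8 changed sign under another setting and 30 with a library left out, and of those that moved by more, 33 and 4. Scaling to cardiomyocyte markers, which shifted the median of all genes to 1.76 and 2.16 in MI against sham, left 1 member called in PKM2fl/fl and 4 in PKM2-/-, now higher. It called 17436 of 21814 genes higher in PKM2fl/fl and 20217 of 22451 in PKM2-/-. Every member lay below the shifted median of its genotype. The log2 changes that turned positive were Bdh1 0.49, Oxct1 0.30, Acat1 0.084, Bcat2 0.44, Bckdhb 0.62, Bckdk 1.01 and Ppm1k 0.23 in PKM2fl/fl, and Bdh1 0.11, Oxct1 0.34, Acat1 0.44, Bcat2 1.04, Bckdha 0.072, Bckdhb 0.86, Bckdk 1.20 and Ppm1k 0.074 in PKM2-/-. Scaling to total count shifted the median of all genes by -0.59 in the baseline genotype comparison, by construction of a scaling that counts ribosomal reads. There it called 8 members lower, with Oxct1 at -0.44, Bcat2 -0.57, Bckdhb -0.42, Ppm1k -0.45 and Klf15 -0.48, and 11879 of 19916 genes lower. Over baseline and sham hearts it called 5 members lower and 1 higher, beside 4570 of 20091 genes lower and 61 higher. Total count scaling left 6 members called lower in MI against sham of PKM2-/-, losing Bcat2, Bckdhb and Bckdk, and 8 in PKM2fl/fl, losing Bckdk. Of all genes it called 1788 of 20821 lower in PKM2-/- and 2921 of 20704 in PKM2fl/fl.

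The genotype comparison of sham hearts called 1 member (Bdh1) with no filter and 1 in DESeq2, and sham against baseline in PKM2-/- called 1 (Klf15) in DESeq2. With 1 library left out, the members called ranged from 8 to 9 in MI against sham of PKM2fl/fl, from 0 to 1 in sham against baseline of either genotype, from 0 to 4 between genotypes after MI and from 0 to 1 between genotypes over baseline and sham hearts. The cause was not tested. Replicate numbers did not pair the hearts: of 18 same-numbered pairs, deviations from the group means correlated from -0.196 to 0.126, with 1 above 0.1. The replicate block called 1 member in sham against baseline of PKM2fl/fl (Bcat2, adjusted p = 0.0480), 1 in PKM2-/- (Klf15, 0.00415) and 1 between genotypes at baseline (Bdh1, 0.00926). With 2 baseline hearts the block takes sham 3 out of the estimate, and leaving out sham 3 without a block gave the same log2 changes and also called Bcat2 (0.0250) and Klf15 (0.0411).

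Over the alternatives the count of all genes called ran from 5058 to 17468 in MI against sham of PKM2fl/fl, 8926 to 20353 in PKM2-/-, 0 to 480 and 131 to 1551 in sham against baseline, 2 to 11983, 0 to 347 and 0 to 1580 between genotypes at baseline, sham and MI, 0 to 240 for the interaction, 14 to 4631 between genotypes over baseline and sham hearts, and 491 to 1683 for sham surgery over both genotypes. Each member had at least 240 reads in every library, and the limit that depth sets was not tested.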
